A study of Homo sapiens with 16 samples.

Results

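Ovarian carcinoma cells held for 24 h with 1,25-dihydroxyvitamin D3 were compared with vehicle cells across all genes of the Affymetrix U133A array. The comparison used 6 of the 16 arrays of the series, namely the 3 titled as 24 h and the 3 titled as 0 h, and it covered the 7178 genes that lay above a filter on dim genes, of 11963 genes on the array. The cells were OVCAR3, an established human ovarian carcinoma line. The 24 h cells received the hormone, given in the series' design text at 0.1 pM, for the last 24 h before harvest, and the vehicle cells received ethanol only. Hormone was added at staggered times so that all cultures were harvested together, and every culture, the treated ones included, had the same ethanol for the same time. The medium of all groups held 15% fetal bovine serum and bovine insulin. The 3 arrays of each group come from independent experiments, and the response of those cells had been checked by Northern blot for GADD45 before the arrays were made. The other U133A arrays held 3 replicates each after 8 and 72 h, and a U95 array type held 1 array for each time.

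1,25(OH)2D3 is the hormonal form of vitamin D. It binds the vitamin D receptor, VDR, a nuclear receptor that pairs with a retinoid X receptor and binds direct repeat elements, often far from the start site of the genes it controls. In epithelia the receptor is known for inducing CYP24A1, which inactivates the hormone, for genes of calcium uptake and barrier defence, and for lowering genes driven by NF-kappaB, the factor that switches on many chemokines and cytokines.

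The median signal of the arrays lay between 179.8 and 188 at 24 h and between 185 and 193 in vehicle, and the 6 arrays correlated with each other between 0.965 and 0.976 on the log2 scale. Signals are MAS5 intensities in arbitrary units, which can be compared between arrays for 1 probe set but not between probe sets. Log2 changes and folds were computed after adding 15.8, the 10th percentile of all U133A signals, to each signal, which understates the change of dim genes. All 11 epithelial markers and all 6 ovarian carcinoma markers of the panel lay above the filter. The summed signals of the 10 fibroblast markers were 1310 to 1468 at 24 h and 1349 to 1520 in vehicle. Those of the 10 genes of the leukocyte panel were 1277 to 1455 at 24 h and 1421 to 1652 in vehicle. That panel also held HBB, a globin gene of red cells, with mean signals of 421 at 24 h and 387 in vehicle. The 8 endothelial markers summed to 324 to 387 at 24 h and 243 to 443 in vehicle. In these 3 panels 6 markers lay above the filter, 0 passed the test and 0 of the markers were at a signal of 0. With bulk RNA, fewer cells that make a transcript and less transcript per cell cannot be told apart.

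After 24 h of hormone, 176 genes were higher (2.45% of those tested) and 116 were lower (1.62%) than in vehicle, by limma with a Benjamini-Hochberg adjusted p of at most 0.05. At least 2-fold, 45 genes were higher (0.627%) and 23 lower (0.32%). The median log2 change of all 7178 genes was -0.016, the base against which the medians of gene groups below are to be read. Of these changes 3824 were negative and 3338 positive, the base for counts of signs in those groups. The shares of 2.45% and 1.62% are likewise the base for counts in such groups, which were chosen with earlier results of these data known. In each of the 292 called genes (4.07%) all 3 signals at 24 h lay beyond all 3 signals in vehicle, a separation that 1473 genes (20.5%) showed. Separate groups in a called gene named below thus describe its values and add no support to its call. The calls of 100 higher (1.39%) and 51 lower genes (0.711%) held when any 1 of the 6 arrays was left out, and genes named below held in this way unless a highest leave-out p is given.

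**Figure D1:**
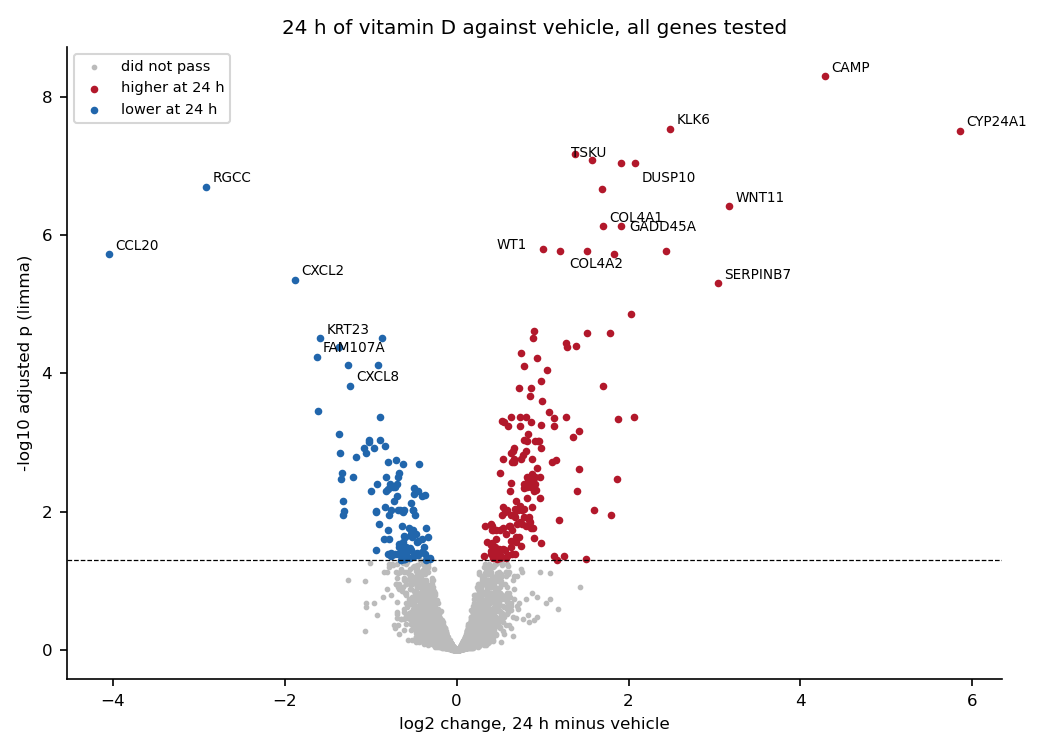
Log2 change (24 h minus vehicle, x axis) against -log10 of limma's adjusted p (y axis) for the 7178 genes tested. Red points are the 176 higher genes, blue points the 116 lower genes, grey points genes that did not pass, and the dashed line is the threshold of 0.05. CYP24A1 and CAMP lie farthest to the right and CCL20 and RGCC farthest to the left.

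The largest rise was that of CYP24A1, the mitochondrial hydroxylase that inactivates the hormone. Its signals were 8141, 5177 and 8671 at 24 h, against 56.4, 84.1 and 247 in vehicle. All 3 hormone arrays stood far above the vehicle arrays, which themselves differed more than 4-fold, and the fold was 57.9 (log2 change 5.86, SE 0.33, adjusted p = 3.1e-08). The log2 change was 6.07 with a pseudocount of 1 and 5.36 with a pseudocount 4 times as large. CAMP, the precursor of the antimicrobial peptide cathelicidin, had signals of 1008, 873 and 807 at 24 h, against 26.7, 32.7 and 33.2 in vehicle. The vehicle signals of CAMP are close to the 10th percentile of the arrays, and its log2 change of 4.29 (SE 0.20, adjusted p = 5.0e-09) became 4.82 and 3.34 with the smaller and the larger pseudocount.

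Of 22 tested genes listed as VDR targets, 12 were higher and 2 lower, with a median log2 change of 0.54. Among all genes tested 2.45% were higher and 1.62% lower. The list was chosen with earlier results of these data known, so its count is no independent support. Beside CYP24A1 and CAMP, the list held KLK6, a secreted serine protease, with 5173, 3904 and 5185 at 24 h and 798, 907 and 782 in vehicle (5.61-fold, adjusted p = 2.9e-08). It also held DUSP10, a phosphatase of stress-activated kinases, with 1204, 1266 and 1118 at 24 h and 229, 258 and 337 in vehicle (4.21-fold, adjusted p = 9.2e-08). GADD45A, a growth arrest and DNA damage gene that the study had picked from its own U95 arrays, had 1846, 1516 and 2038 at 24 h and 571, 403 and 432 in vehicle (3.76-fold, SE 0.15 on the log2 scale, adjusted p = 7.5e-07). The groups of these 3 genes did not overlap, as in every called gene. CEBPB, a transcription factor of innate defence and differentiation, was 1.85-fold higher, at 14784 ± 636 at 24 h and 7994 ± 399 in vehicle (SD, n = 3 each, as for all such values; adjusted p = 3.1e-05).

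The remaining VDR targets that passed were higher in all but 2 cases. NRIP1, a corepressor of nuclear receptors, rose 2.42-fold (adjusted p = 4.3e-04), SERPINB1, an inhibitor of neutrophil proteases, 1.98-fold (adjusted p = 1.3e-04) and CDH1, the epithelial cadherin, 1.58-fold (adjusted p = 0.0013). TRPV6, the calcium channel of absorbing epithelia, had 307, 220.2 and 263 at 24 h and 93.9, 115 and 19.4 in vehicle. Its 24 h signals were all above the vehicle signals, 1 of which was near the 10th percentile, and the call (log2 change 1.80, or 2.11 and 1.29 with the smaller and the larger pseudocount, adjusted p = 0.011) ended without 24 h replicate 1 (adjusted p = 0.055). The lipid droplet protein G0S2 (0.63) and carbonic anhydrase CA2 (0.46) rose with calls that other left-out arrays ended (highest adjusted p = 0.12 and 0.15). The 2 lower members were S100A8, a calcium-binding protein of neutrophils and inflamed epithelium, at 186 ± 55.6 at 24 h and 490.3 ± 96.9 in vehicle (log2 change -1.35, adjusted p = 0.0033), and the transcription factor KLF4, at 297 ± 46.0 at 24 h and 536 ± 77.6 in vehicle (-0.82, adjusted p = 0.0050; 0.088 with the mean of its probe sets).

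Of 11 tested genes that make, break down or sense the hormone, CYP24A1 passed and the other 10 did not. VDR itself had signals of 434, 473 and 513 at 24 h and 467, 348 and 428 in vehicle. These ranges overlapped, and the log2 change of VDR was 0.19 (SE 0.15, adjusted p = 0.62). RXRA, a partner of the receptor, had a log2 change of -0.40 (adjusted p = 0.14), and LRP2, the endocytic receptor that takes up vitamin D with its carrier protein, -0.70 (adjusted p = 0.073).

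**Figure D2:**
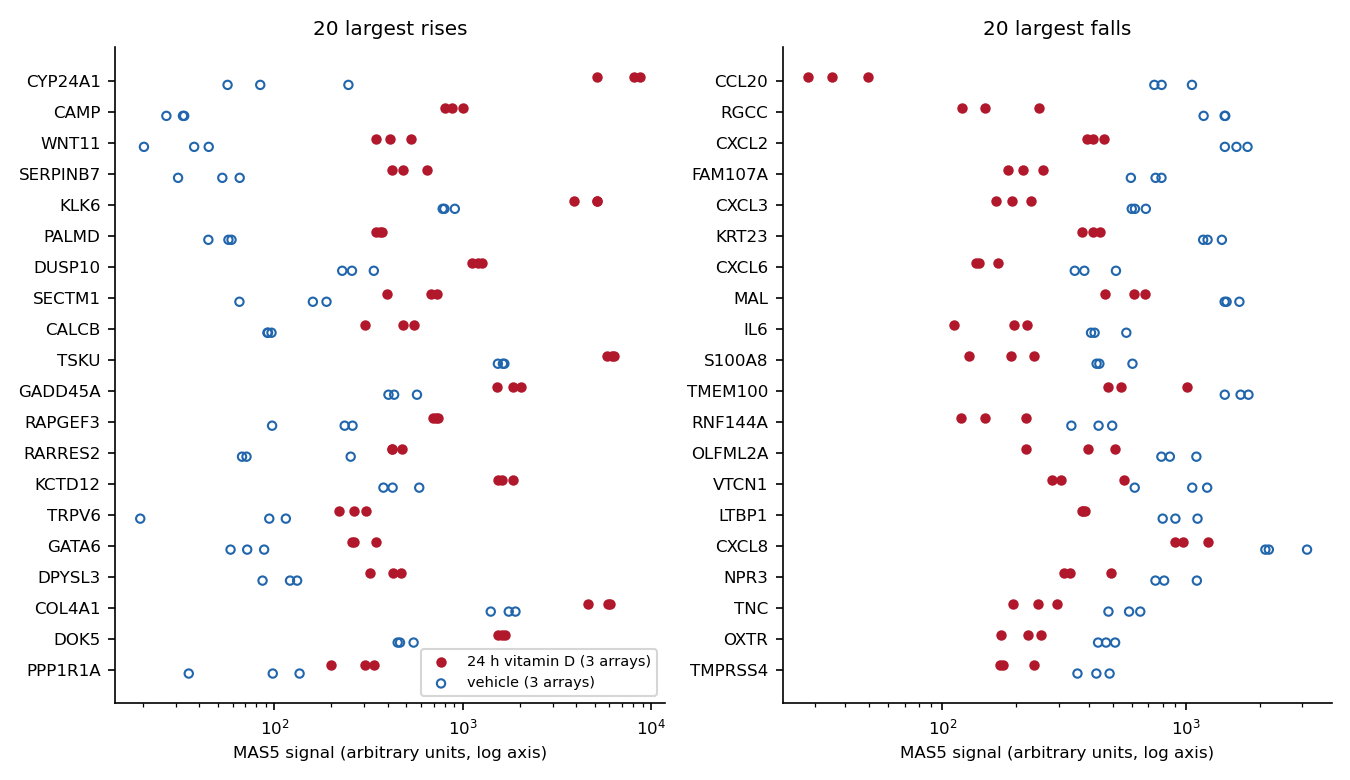
MAS5 signal on a log axis (x axis, arbitrary units) of the 20 genes with the largest rise (left) and the 20 with the largest fall (right). Filled red points are the 3 arrays at 24 h and open blue points the 3 vehicle arrays. The genes were chosen among those whose filled points lie to one side of the open ones, a separation that 20.5% of all genes tested showed. Gaps are narrow for VTCN1 and PPP1R1A and wide for CAMP, KLK6 and CCL20.

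The largest fall was that of CCL20, the ligand of CCR6, a receptor on dendritic cells and some T cells. CCL20 had signals of 35.1, 49.5 and 28.0 at 24 h, against 793, 740.1 and 1056 in vehicle. Every hormone array was at a dim level and every vehicle array at a bright one, and the log2 change was -4.04 (SE 0.34, adjusted p = 1.9e-06), or -3.19 with the larger pseudocount. Of 29 tested genes of the NF-kappaB, chemokine and cytokine list, 9 were lower and 1 higher, 22 of 29 changes were negative and the median was -0.42. Another 5 of the lower genes were chemokines that attract neutrophils.

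CXCL2 had 416, 462 and 393 at 24 h and 1608, 1441 and 1785 in vehicle (log2 change -1.89, SE 0.17, adjusted p = 4.4e-06). CXCL3 had 231, 193 and 166 at 24 h and 616, 598 and 683 in vehicle (-1.62, adjusted p = 3.5e-04). CXCL6 had 141, 137 and 169.5 at 24 h and 382, 349 and 515 in vehicle (-1.37, adjusted p = 7.5e-04). The groups stood apart in all 3 genes, and the smallest vehicle signal was at least 2 times the largest 24 h signal in each. CXCL8, which encodes interleukin 8, had 897, 1226 and 972 at 24 h and 2113, 2183 and 3132 in vehicle (-1.24, adjusted p = 1.5e-04), and its other probe set gave -1.31. CXCL1 had 2202, 2555 and 2500.3 at 24 h and 4952, 4021 and 4607 in vehicle (-0.90, adjusted p = 9.2e-04). CXCL1, CXCL2 and CXCL3 are near-identical in sequence, so that their probe sets may share targets and the values of the 3 genes cannot be fully separated.

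IL6, the inflammatory cytokine interleukin 6, had 112, 197 and 223 at 24 h and 421, 407 and 568 in vehicle (log2 change -1.35, SE 0.22, adjusted p = 0.0014). The groups did not overlap. TNFAIP3, an inhibitor of NF-kappaB that is itself an NF-kappaB target (-0.67), and the chemokine CX3CL1 (-0.71) were called lower but lost the call without some arrays (highest adjusted p = 0.15 and 0.17). The U95 signals of TNFAIP3 ran the other way, at 576 at 24 h and 487 in vehicle. CSF1, the macrophage growth factor, was the member that rose, at 684 ± 29.5 at 24 h and 276 ± 41.6 in vehicle (1.27, adjusted p = 3.6e-05). It rests on 1 of 4 probe sets, the other 3 lay under the filter, and the U95 log2 ratio was -0.68. The factor's subunits RELA and NFKB1 and its inhibitor NFKBIA did not pass, with log2 changes of 0.12 for RELA, -0.30 for NFKB1 and 0.06 for NFKBIA (adjusted p = 0.73, 0.39 and 0.87). ICAM1, an adhesion molecule that NF-kappaB induces, had -0.13 (adjusted p = 0.76).

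The promoters of the 7 chemokine and cytokine genes whose falls held are shown because most of them carry a kappaB element, the short sequence that NF-kappaB binds. Each line gives the 70 bases from 110 to 41 bases before the start site, 5′ to 3′ on the gene's strand, from RefSeq on GRCh38.p14, and capitals mark bases of an exact match on either strand. The windows are chr2:227813732-227813801 (plus strand) for CCL20, chr4:74099236-74099305 (minus) for CXCL2, chr4:74038730-74038799 (minus) for CXCL3, chr4:73836568-73836637 (plus) for CXCL6, chr7:22727090-22727159 (plus) for IL6, chr4:73740459-73740528 (plus) for CXCL8 and chr4:73869283-73869352 (plus) for CXCL1.
CCL20: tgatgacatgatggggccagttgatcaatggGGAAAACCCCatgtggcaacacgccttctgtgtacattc
CXCL2: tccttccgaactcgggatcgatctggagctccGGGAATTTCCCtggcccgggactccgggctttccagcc
CXCL3: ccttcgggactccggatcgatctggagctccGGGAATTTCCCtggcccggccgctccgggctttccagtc
CXCL6: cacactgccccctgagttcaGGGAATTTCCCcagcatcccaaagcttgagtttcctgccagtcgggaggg
IL6: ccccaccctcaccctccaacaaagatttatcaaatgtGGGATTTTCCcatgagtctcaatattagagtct
CXCL8: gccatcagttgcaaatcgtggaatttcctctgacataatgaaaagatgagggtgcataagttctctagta
CXCL1: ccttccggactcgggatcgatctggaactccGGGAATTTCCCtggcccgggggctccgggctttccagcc

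The CXCL1, CXCL2 and CXCL3 windows are nearly the same sequence around the capitals, and the CXCL8 window has no exact match. Of the 7178 genes tested, 6003 had a promoter of 250 bases before to 50 bases after the start site in the table searched, which leaves out chromosome 8. An exact kappaB match on either strand stood in 24 of 92 promoters of lower genes (26.1%), in 12 of 144 promoters of higher genes (8.33%) and in 411 of all 6003 (6.85%). Outside the cytokine list, 17 of 84 promoters of lower genes (20.2%) had a match. Within the list, 7 of 8 promoters of lower genes and 3 of 14 promoters of genes that did not pass had one. These shares are descriptions of letters in a window, and a match is not a bound site. The median GC content of the promoters was 67.7% for higher, 64.0% for lower and 65.3% for all genes. The direct repeat element of VDR, searched on both strands, had an exact match in 0 of 144 promoters of higher genes, 0 of 92 of lower genes and 0.183% of all. With 1 mismatch allowed the shares were 2.78%, 6.52% and 3.86%.

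Of 33 interferon genes tested, 5 were lower, 0 were higher and 28 did not pass. Of all 33 changes 29 were negative, with a median of -0.26. IFNGR1, a chain of the interferon gamma receptor, had 698, 939.6 and 931 at 24 h and 1385, 1356 and 1865 in vehicle (log2 change -0.83, adjusted p = 0.0031). GBP2, an interferon-induced GTPase, had 249, 240.2 and 231 at 24 h and 472, 674 and 382 in vehicle (-1.0, adjusted p = 0.0050). The groups of both genes were apart. The transcription factors IRF8 (-0.94) and IRF1 (-0.53) and the antiviral membrane protein IFITM3 (-0.35) were lower with calls that ended without some arrays (highest adjusted p = 0.069, 0.13 and 0.10). The IFITM3 probe set may also detect its close relatives. Of 16 MHC and antigen presentation genes 0 passed, and CANX, a chaperone of the endoplasmic reticulum, had the lowest p (0.26, adjusted p = 0.075).

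**Figure D3:**
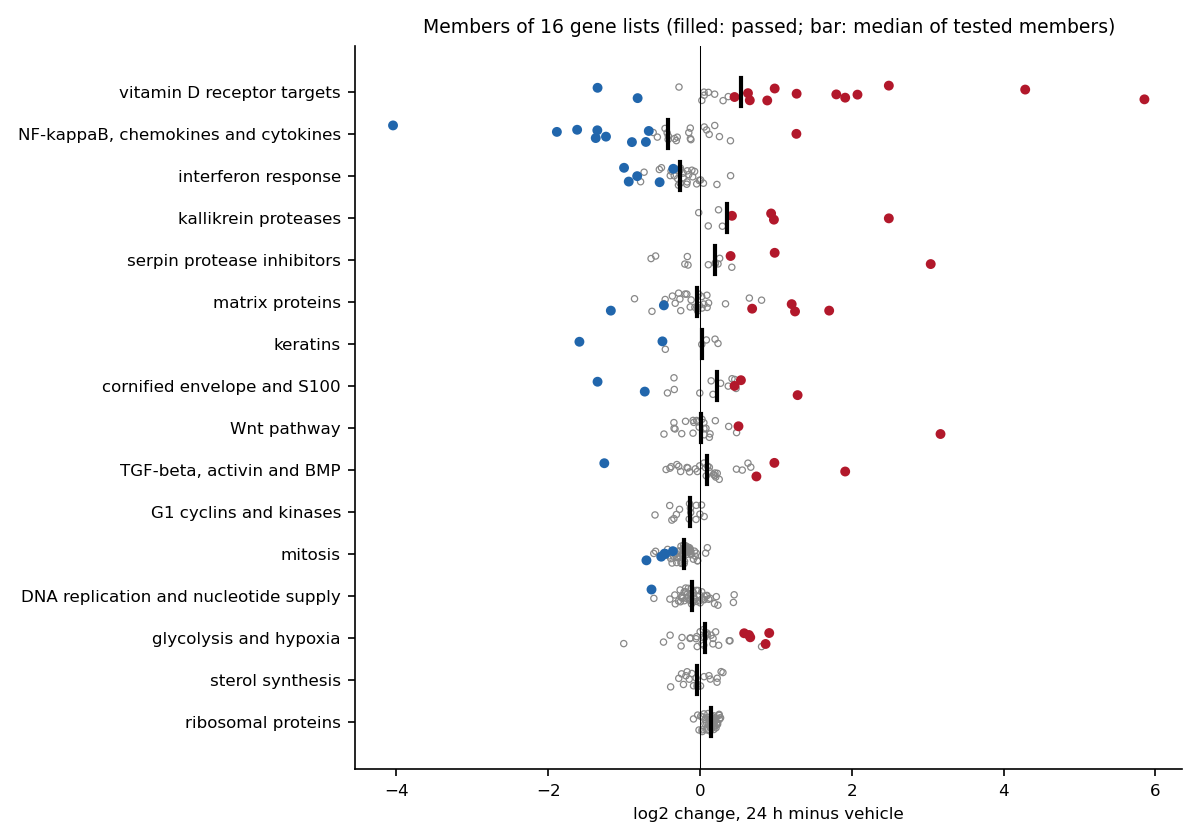
Log2 change (24 h minus vehicle, x axis) of every tested member of 16 gene lists (rows). Red and blue points passed the test, open points did not, and the black bar is the median of the tested members. Rises of VDR targets reach 5.86 and falls of the cytokine list reach -4.04, and 0 sterol and 0 ribosomal genes passed, with medians of -0.04 and 0.15.

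Kallikreins are secreted serine proteases that many ovarian carcinomas make. Of 8 tested, 4 were higher, 0 were lower and 4 did not pass, with a median of 0.36. The 4 that did not pass were KLK1 (-0.02), KLK10 (0.24), KLK12 (0.11) and KLK13 (0.29). KLK5 had 1916, 1861 and 2041 at 24 h and 905, 1016 and 1104 in vehicle (1.91-fold, adjusted p = 6.0e-05), and KLK7 had 327, 228 and 262 at 24 h and 117, 132 and 139.9 in vehicle (1.96-fold, adjusted p = 0.0031). In skin KLK5 activates KLK7, and both cut the contacts between cells. KLK5, KLK6, KLK7 and KLK8 lie side by side on chromosome 19, and the rise of KLK8, a trypsin-like protease, by 0.42 did not hold (highest adjusted p = 0.23).

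SERPINB7, an intracellular serine protease inhibitor of epithelia, had 646, 422 and 483 at 24 h and 52.9, 65.4 and 30.8 in vehicle. The groups were far apart, with a log2 change of 3.04 (SE 0.28, adjusted p = 5.0e-06), or 3.40 and 2.35 with the smaller and the larger pseudocount. It was 1 of 3 higher genes among 14 tested inhibitors, of which 0 were lower and the median was 0.20. The others were SERPINB1 and the secreted inhibitor SLPI (0.40), whose call did not hold (highest adjusted p = 0.076). TMPRSS4, a membrane-bound serine protease, fell, with 173, 237 and 177 at 24 h and 358, 485 and 428 in vehicle (-1.06, adjusted p = 0.0014). It and the metalloprotease ADAMTS1 (-0.80, highest adjusted p = 0.092) were the 2 lower genes of 22 metalloproteases and plasminogen genes. PLAUR, the urokinase receptor, was the 1 that rose (0.65, adjusted p = 0.0019), but its other probe sets gave 0.08 and 0.15 and the mean of them did not pass (adjusted p = 0.35).

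Basement membrane collagen rose. COL4A1 had 5914, 4640.1 and 6009 at 24 h and 1903, 1407 and 1753 in vehicle (3.25-fold, SE 0.13 on the log2 scale, adjusted p = 7.5e-07). COL4A2, which forms the same triple helix and shares its promoter region with COL4A1, had 4559.8, 4128 and 4219.5 at 24 h and 2013, 1861 and 1696 in vehicle (2.31-fold, adjusted p = 1.7e-06). The groups did not overlap for either chain, and the other probe sets of the genes gave 1.53 and 1.51 on the log2 scale. Of 34 tested matrix genes 4 were higher and 2 lower, with a median of -0.03. The basement membrane genes LAMB3 (0.69) and HSPG2 (1.25) were called higher and the fibrillin FBN2 (-0.48) lower, none of them without each array (highest adjusted p = 0.10, 0.16 and 0.12). TNC, the matrix protein tenascin C, had 194, 246 and 296 at 24 h and 479.8, 583 and 648 in vehicle (-1.18, adjusted p = 0.0016; 0.15 when its probe sets were averaged).

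Of 27 junction genes CDH1 and PKP2, a desmosomal plaque protein, rose and 0 fell. CDH1 had 3511, 3784 and 3587 at 24 h and 2351, 2610.1 and 1968 in vehicle, with no overlap. PKP2 stood at 694 ± 122 at 24 h and 386 ± 31.3 in vehicle (0.81, adjusted p = 0.0013; 0.46 with the mean of its probe sets). Of 16 integrin genes, ITGB5 (0.81, adjusted p = 4.3e-04) and the tetraspanin CD151 (0.47, highest adjusted p = 0.23) were called higher. The probe sets of ITGB5 disagreed, with changes of 0.81, 0.48, 0.42 and -1.01.

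The secreted ligand WNT11 had 348, 529 and 412 at 24 h, against 44.8, 20.3 and 37.5 in vehicle. Its vehicle signals were dim and its 24 h signals all bright, with a log2 change of 3.17 (SE 0.23, adjusted p = 3.8e-07), or 3.66 and 2.33 with the smaller and the larger pseudocount. Among 24 Wnt pathway genes TCF7L2, the transcription factor at the end of that pathway, also rose (0.51, adjusted p = 0.0027), 0 fell and the median was 0.01. All 6 probe sets of TCF7L2 were higher. The largest change, 1.75, came from the 1 under the filter, which averaged 132 at 24 h and 27.8 in vehicle. The others gave 0.18 to 0.53, and the U95 log2 ratio was 0.17.

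Of 32 genes of TGF-beta, activin and BMP signalling, 3 were higher and 1 lower, with a median of 0.09. TSKU, a secreted protein that binds ligands of these families, had 6319.6, 5815 and 6187 at 24 h and 1632, 1535 and 1662 in vehicle (3.77-fold, adjusted p = 9.2e-08). INHBB, the activin beta B subunit, had 2769, 2965 and 2548 at 24 h and 1476, 1399 and 1298 in vehicle (1.97-fold, adjusted p = 0.0012). LTBP1, which stores latent TGF-beta in the matrix, had 374, 384 and 379 at 24 h and 1113, 801 and 903 in vehicle (log2 change -1.26, adjusted p = 7.6e-05; its other probe set -2.19). In these 3 genes the arrays of a group stood close together and apart from the other group. ID3, a target of BMP signals, rose by 0.74 with a call that did not hold (highest adjusted p = 0.15). IGFBP4, which binds insulin-like growth factors, rose 1.91-fold (adjusted p = 0.0023) as the 1 called gene of 7 in its axis. EGFR fell by 0.79 on the log2 scale as the 1 called gene of 13 in its family, and its call did not hold (highest adjusted p = 0.11).

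FLG, the epidermal barrier protein filaggrin, had 2151, 2627 and 3391 at 24 h and 948, 1176 and 1155 in vehicle (2.44-fold, adjusted p = 4.1e-05). KRT23, a type I keratin, had 441, 374 and 416 at 24 h and 1224, 1174 and 1401 in vehicle (log2 change -1.59, adjusted p = 3.1e-05). Neither gene's groups overlapped. Of 16 cornified envelope and S100 genes 3 were higher and 2 lower. S100A6 was 1.45-fold higher (adjusted p = 0.0017), S100A2 0.46 higher on the log2 scale (highest adjusted p = 0.10), and the transglutaminase TGM2 lower (-0.73, adjusted p = 0.0070; 0.29 with the mean of its probe sets). Of 7 keratins 0 were higher, and KRT18, a keratin of simple epithelium whose probe set may also detect pseudogene transcripts, was lower (-0.50, adjusted p = 0.0045), with a U95 log2 ratio of 0.09. MAL, a lipid raft protein of apical membrane sorting, had 613, 676 and 464 at 24 h and 1653, 1465 and 1438 in vehicle (-1.37, adjusted p = 4.1e-05).

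Among 25 tested lineage transcription factors 3 were higher and 2 lower. WT1, a factor of the Mullerian and mesothelial lineages and a marker of serous ovarian carcinoma, had 4076, 4401 and 4148 at 24 h and 2064, 2264 and 1958 in vehicle (2.00-fold, SE 0.08 on the log2 scale, adjusted p = 1.6e-06). GATA6, a zinc finger factor of endoderm and ovary, had 258, 264 and 347 at 24 h and 58.5, 71.7 and 88.2 in vehicle (log2 change 1.79, or 1.98 and 1.37 with the smaller and the larger pseudocount, adjusted p = 2.6e-05). PAX8, another Mullerian factor, had 6461, 5970.3 and 5862 at 24 h and 8145, 7907 and 7591 in vehicle (log2 change -0.37, adjusted p = 0.0057; 0.081 with median centring). The groups were apart in all 3 genes, and the 8 probe sets of PAX8 gave changes from -0.37 to -0.72. ELF3 (0.41) and EYA2 (-0.48) were called without holding (highest adjusted p = 0.11 and 0.13).

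Of 31 ovarian carcinoma markers, a list that shares KLK6, KLK7, WT1 and PAX8 with those above, 6 were higher and 4 lower, with a median of 0.02. CP, the copper oxidase ceruloplasmin, had 7334, 6499 and 5215 at 24 h and 2096, 3287 and 2164 in vehicle (2.54-fold, adjusted p = 8.4e-04). VTCN1, the immune checkpoint ligand also called B7-H4, had 280.3, 554 and 307 at 24 h and 1059, 1219 and 615 in vehicle. Its groups nearly touched, and the call (log2 change -1.31, adjusted p = 0.0097) ended without 24 h replicate 1 or vehicle replicate 1 or 2 (highest adjusted p = 0.058). CD24, a surface glycoprotein, was lower on all 6 probe sets (-0.30 to -0.57), with adjusted p = 0.0058 for the one used and 0.066 with median centring.

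CALCB, a calcitonin gene-related vasodilator peptide, had 484, 303 and 548 at 24 h and 91.8, 92.5 and 96.5 in vehicle (4.09-fold, adjusted p = 1.4e-05). ADM, a related vasodilator, stood at 893 ± 127 at 24 h and 466 ± 55.9 in vehicle (1.88-fold, adjusted p = 0.0040). These were the 2 called genes of 4 tested in the calcitonin family. RAPGEF3, an exchange factor that cyclic AMP activates directly, had 718, 739 and 694 at 24 h and 259.8, 236 and 97.2 in vehicle (3.69-fold, adjusted p = 4.5e-04), and its other probe set gave 0.43 on the log2 scale. It was the 1 called gene of 22 of cyclic AMP and small G protein signalling, of which 15 changes were negative and the median was -0.12. PPP1R1A, an inhibitor of protein phosphatase 1 that cyclic AMP signals switch on, had 301, 339 and 199.8 at 24 h and 136, 98.0 and 35.1 in vehicle (3.02-fold, adjusted p = 0.0094).

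DOK5, a docking protein of receptor tyrosine kinases, had 1614, 1538 and 1675 at 24 h and 548, 451 and 464 in vehicle (3.24-fold, adjusted p = 2.2e-07). KCTD12, an auxiliary subunit of GABA-B receptors, had 1544, 1618 and 1848 at 24 h and 379, 424 and 587 in vehicle (3.57-fold, adjusted p = 1.9e-06). Both genes had well separated groups. SECTM1, a secreted and transmembrane ligand of T and NK cells, stood at 601 ± 179 at 24 h and 138 ± 64.6 in vehicle (4.18-fold, adjusted p = 4.3e-04). RARRES2, which encodes the chemoattractant chemerin, had 421, 422 and 476 at 24 h and 71.1, 254 and 67.3 in vehicle (3.64-fold, adjusted p = 0.0033), where vehicle replicate 2 stood above the other vehicle arrays. PALMD, a cytosolic protein related to paralemmin, had 344, 372 and 362 at 24 h and 59.2, 57.0 and 44.6 in vehicle (log2 change 2.44, or 2.73 and 1.86 with the smaller and the larger pseudocount, adjusted p = 1.7e-06). DPYSL3, a regulator of actin bundling and neurite growth, stood at 404 ± 74.0 at 24 h and 113 ± 23.5 in vehicle (3.27-fold, adjusted p = 1.5e-04). PALMD and DPYSL3 were among 3 higher genes, with 3 lower ones, of 44 cytoskeletal regulators tested. NAV2, a protein of neurite growth (-0.90, adjusted p = 4.3e-04), and LMCD1, a LIM domain protein (-0.69, adjusted p = 0.0031) were lower.

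The other large falls were of mixed function. FAM107A, a stress-induced actin-binding protein, had 186, 214 and 259.5 at 24 h and 792, 593 and 749 in vehicle (log2 change -1.63, adjusted p = 5.7e-05). Its other probe set averaged 114 at 24 h and 1891 in vehicle, a change of -4.00, so that the size of the fall depends on the probe set. TMEM100, a membrane protein of endothelium and sensory neurons, had 538, 1009 and 476 at 24 h and 1439.9, 1672 and 1801 in vehicle (-1.33, adjusted p = 0.0027). OLFML2A, an olfactomedin-like matrix protein, stood at 375 ± 145 at 24 h and 917 ± 163 in vehicle (-1.32, adjusted p = 0.0070). RNF144A, a ubiquitin ligase, stood at 163 ± 52.6 at 24 h and 424 ± 80.1 in vehicle (-1.32), a call that ended without 24 h replicate 1 or vehicle replicate 3 (adjusted p = 0.063). The groups of these genes were apart, as in every called gene. The receptor NPR3, which clears natriuretic peptides, had 316, 333 and 489.7 at 24 h and 748, 812 and 1106 in vehicle (-1.20, adjusted p = 0.0031; 0.084 when its probe sets were averaged). OXTR, the oxytocin receptor, had 225, 254 and 174 at 24 h and 469, 511 and 435 in vehicle (-1.08, adjusted p = 0.0012).

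RGCC, which binds cyclin-dependent kinase complexes, had signals of 149, 119.8 and 248 at 24 h, against 1438, 1179 and 1446 in vehicle. All vehicle arrays stood well above all 24 h arrays (log2 change -2.92, SE 0.20, adjusted p = 2.0e-07). RGCC and TOB1, an antiproliferative protein (-0.54, adjusted p = 0.0074; 0.063 with median centring), were the lower and GADD45A the higher of the called genes among 12 inhibitors of G1 and pocket proteins. Of 15 G1 cyclins and kinases 0 passed, 13 changes were negative and the median was -0.14. CCNE1, cyclin E1, had the lowest p in that list, at 2072 ± 243 at 24 h and 2688 ± 382 in vehicle (-0.37, adjusted p = 0.19). Of 48 replication genes MCM10 was lower (-0.64), with a highest adjusted p of 0.095, 0 were higher and the median was -0.10.

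Of 57 mitosis genes 5 were lower, 0 were higher and 52 did not pass. Of all 57 changes 55 were negative, with a median of -0.21. CDC25B, the phosphatase that activates mitotic kinases, had 1089.8, 1309 and 1258 at 24 h and 1959, 1989.9 and 2030 in vehicle (-0.71, adjusted p = 0.0018). It was the 1 called gene of the list that held, with groups well apart. KIF11 (-0.51) and KIF20A (-0.46), both kinesin motors, CENPA (-0.47), the histone of centromeres, and DLGAP5 (-0.36), a spindle protein, had highest adjusted p of 0.062, 0.17, 0.097 and 0.18. KIF11, KIF20A, CENPA and DLGAP5 also lost their calls with median centring.

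Among 19 tested p53 targets GADD45A, GADD45B (0.92, adjusted p = 0.0049) and PLK2 (0.35, highest adjusted p = 0.13) were higher. FAS, a death receptor on that list, was lower (-0.90, highest adjusted p = 0.083). TNFSF10, the death ligand TRAIL, had 277, 319.8 and 279.8 at 24 h and 141, 122 and 53.9 in vehicle (2.68-fold, adjusted p = 0.0024), and its groups did not overlap. Of 19 BCL2 family and mitochondrial apoptosis genes 0 passed. BCL2L2 had the lowest p there (0.33, adjusted p = 0.23).

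Of 31 glycolysis and hypoxia genes 5 were higher and 0 lower, with a median of 0.07. DDIT4, a stress-induced inhibitor of the growth kinase mTOR, had 1827, 1625 and 1748 at 24 h and 1009, 865 and 964 in vehicle (1.82-fold, adjusted p = 5.1e-04). PFKP, a phosphofructokinase, was 1.58-fold higher (adjusted p = 0.0017), ADM is given above, and VEGFA (0.58) and NDRG1 (0.65) had highest adjusted p of 0.053 and 0.19. In the calcium and phosphate list ATP2B4, a calcium pump of the plasma membrane, had 2346, 2486 and 1727 at 24 h and 1043, 1241 and 962 in vehicle (1.99-fold, adjusted p = 2.5e-04), TRPV6 and CA2 are given above, and 0 of 14 were lower.

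ASNS, asparagine synthetase of the amino acid response, was at 1584 ± 284 at 24 h and 892 ± 134 in vehicle (1.76-fold, adjusted p = 0.0063), among 3 higher and 0 lower genes of 31. TXNRD1, thioredoxin reductase, was 1.47-fold higher (adjusted p = 5.1e-04), 1 of 2 higher and 0 lower of 33 oxidative stress genes. CRYAB, a small heat shock protein, was lower, with 178, 167 and 185 at 24 h and 349, 345 and 382 in vehicle (-0.96, adjusted p = 0.0012). Of 124 solute carriers 5 were higher and 0 lower, a share near the 4.07% called among all genes tested. The calls of the glutamate transporter SLC1A3 (0.83), the betaine transporter SLC6A12 (0.75) and the heme transporter SLC48A1 (0.63) held. In 44 oxidative phosphorylation genes, 21 sterol synthesis genes, 51 ribosomal protein genes, 28 proteasome genes, 16 transfer RNA synthetases, 13 histone genes and 93 zinc finger ZNF genes 0 passed. With 4.07% of all genes called, 0 calls in the shorter of these lists say little about them. Of the ribosomal changes 48 were positive, with a median of 0.15 and a highest change of 0.27.

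Some called genes were neighbours on their chromosomes. Adjacency was read from the order of protein-coding genes of GRCh38.p14 in RefSeq. Neighbours called in the same direction included the run from KLK5 to KLK8, COL4A1 with COL4A2, CXCL8 with CXCL6 and CXCL3 with CXCL2. Others were GADD45A with GNG12 (1.91 and 0.40), LXN with RARRES1 (0.44 and 1.52) and E2F8 with NAV2 (-0.83 and -0.90). NDST1 and SYNPO, also adjacent, moved in opposite directions (-0.55 and 0.57). Pairs such as RAPGEF3 with SLC48A1 (1.88 and 0.63) are of unrelated function. The pairs were chosen by their calls. The share among all adjacent pairs of tested genes was not counted, so they are examples and carry no test.

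The 24 h arrays were also set against those at the neighbouring times. After 24 h, 26 genes were higher (0.362%) and 20 lower (0.279%) than after 8 h, and after 72 h, 6 were higher (0.0836%) and 5 lower (0.0697%) than after 24 h. These counts take no account of the replicate number. With that number as a block, 54 were higher and 36 lower than after 8 h. From 24 to 72 h the block gave 14 higher and 11 lower. The 10 largest rises and 10 largest falls were examined singly. They were chosen on the same 24 h arrays, so these differences are not independent of that choice. WNT11 averaged 56.5 at 8 h, 430 at 24 h and 1165 at 72 h, and differed by 2.61 from 8 to 24 h (SE 0.23, adjusted p = 5.6e-05) and by 1.41 from 24 to 72 h (adjusted p = 0.022). The call from 24 to 72 h ended without 24 h replicate 1 or 3 or 72 h replicate 1 or 3 (highest adjusted p = 0.16). SERPINB7 averaged 101, 517 and 1086 at those times, a difference of 2.27 from 8 to 24 h (adjusted p = 7.9e-04). Its difference of 1.07 from 24 to 72 h did not pass (adjusted p = 0.18).

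CCL20 averaged 422 at 8 h, 37.5 at 24 h and 61.1 at 72 h, which is a difference of -3.00 from 8 to 24 h (SE 0.34, adjusted p = 4.8e-04). KLK6 (1.10, adjusted p = 7.9e-04), CAMP (1.41, adjusted p = 0.0027), MAL (-1.09, adjusted p = 0.0027) and CXCL2 (-1.17, adjusted p = 0.0038) also differed between 8 and 24 h with every array left out in turn. KRT23 (-0.95) and FAM107A (-0.98) passed with all arrays (adjusted p = 0.019 and 0.025) but not without some (highest adjusted p = 0.10 and 0.13). CYP24A1 averaged 6185 at 8 h, 7329.8 at 24 h and 7429.8 at 72 h, and its difference of 0.21 from 8 to 24 h was under its SE of 0.33 (adjusted p = 0.95). TSKU (0.50) and RGCC (-0.72) did not pass from 8 to 24 h (adjusted p = 0.10 and 0.17), but did with the replicate number as a block (adjusted p = 0.014 and 0.045). From 24 to 72 h WNT11 was the 1 gene of these 20 that passed.

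**Figure D4:**
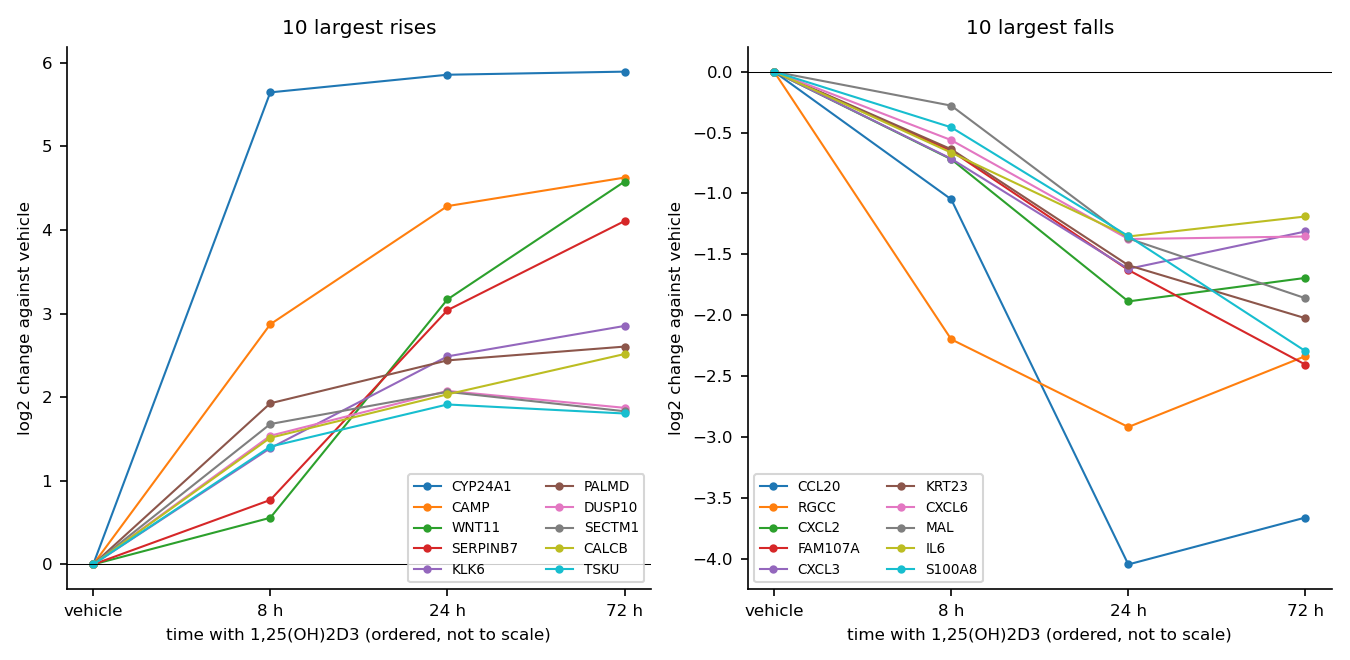
Mean log2 change against vehicle (y axis) of the 10 largest rises (left) and 10 largest falls (right) at 24 h, in vehicle and after 8, 24 and 72 h (x axis, ordered and not to scale). Each line is a gene and each point the difference of 2 group means of 3 arrays. CYP24A1 is near its 24 h value by 8 h, the means of WNT11 and SERPINB7 are highest at 72 h, and that of CCL20 is lowest at 24 h. From 24 to 72 h SERPINB7 and CCL20 did not pass (limma adjusted p = 0.18 and 0.72), and the call of WNT11 ended without some arrays.

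The U95 arrays gave an unreplicated look at the same 24 h comparison with other probe sets, 1 array each. Of the 4167 genes above the filter on both types, 46.5% had a positive U95 log2 ratio, the median was -0.02, and 55 (1.32%) were at 1 or more and 36 (0.864%) at -1 or less. Of the 132 higher genes measured there, 118 (89.4%) were positive with a median of 0.55, 29 were at 1 or more and 0 at -1 or less. Of the 69 lower genes, 4 (5.8%) were positive, with a median of -0.56, and 12 were at -1 or less and 0 at 1 or more. These are descriptions of 2 arrays, with no error. CYP24A1 had U95 signals of 1776 at 24 h and 15.3 in vehicle, DUSP10 1044 at 24 h and 84.5 in vehicle, and CAMP 1498 at 24 h and 186 in vehicle. CCL20 had 197 at 24 h and 619 in vehicle, and CXCL2 411 at 24 h and 1241 in vehicle. WNT11, with 855 at 24 h and 549.9 in vehicle, changed far less on the U95 array (0.62) than on the U133A arrays (3.17). The U95 log2 ratio was also smaller for RAPGEF3 (0.34 against 1.88), SECTM1 (0.69 against 2.06), PPP1R1A (0.64 against 1.60) and CEBPB (0.16 against 0.89). It was larger for TRPV6 (3.34 against 1.80) and DUSP10 (3.43 against 2.08).

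**Figure D5:**
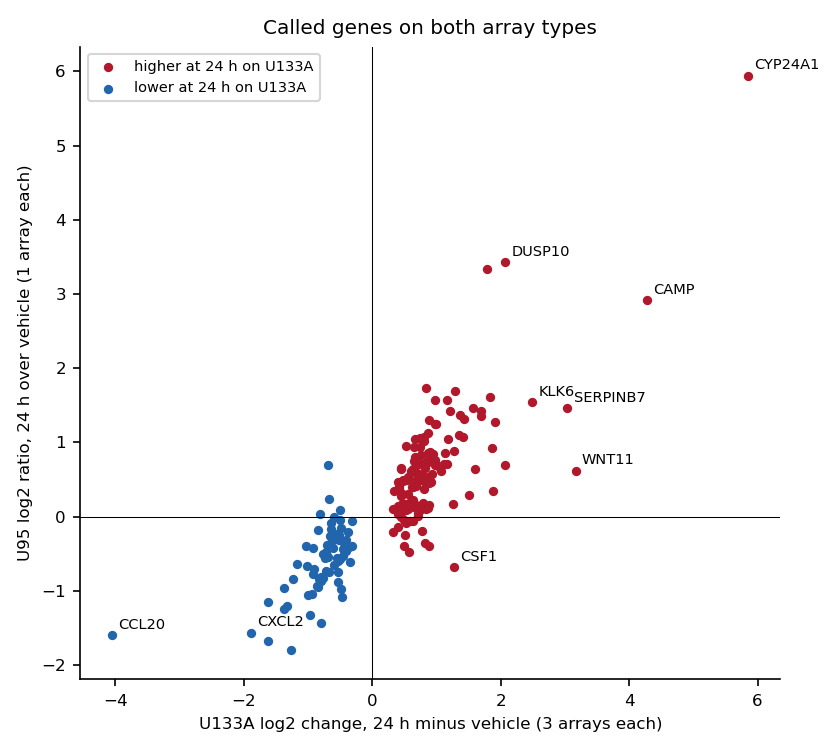
Log2 change on U133A (24 h minus vehicle, 3 arrays each, x axis) against the U95 log2 ratio (24 h over vehicle, 1 array each, y axis) for the called genes above the filter on both types. Red points are higher and blue points lower on U133A. Red points lie mostly above 0 and blue points mostly below it, and CSF1 is among the red points below 0, at -0.68.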

How the data were processed

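RNA of OVCAR3 cells was hybridised to 12 U133A and 4 U95 arrays. The authors deposited intensity values, which are MAS5 signals according to the submitters' processing notes. The 2% trimmed mean was 500.2 on every U133A array, and values were used as deposited. Of 22283 U133A probe sets, 19071 had 1 gene in the platform annotation, 1043 several and 2169 were not listed. A gene was represented by its brightest probe set on average. Values were taken as log2(signal + 15.8), or 13.9 for U95, and genes under the 40th percentile of mean signal were left out. limma 3.58.1 (R 4.3.3) fitted 1 term per group to all 12 U133A arrays, with an intensity trend and 8 residual degrees of freedom; adjusted p is Benjamini-Hochberg over 7178 genes. On simulated data for this comparison, 88.2% to 90.9% of 2-fold changes and 27.3% to 32.4% of log2 changes of 0.5 were recovered. Most changes of the smaller size would thus not pass. There were 0 false calls among 6978 unchanged genes. The simulated noise was drawn independently for each array, so this count is no estimate of false calls in these data. The number of arrays limits the precision.

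Named genes were the 20 largest called rises and falls with separated groups, up to 6 called members of each list by p, the lowest p of lists with none called, and CYP24A1, GADD45A and VDR; other names were chosen after their values were seen. Members and lists were chosen with earlier results of these data known. Same-number arrays of 24 h and 8 h deviated together (correlations 0.157, 0.143 and 0.108), as did those of 72 h and 24 h (0.103, 0.187 and 0.146), read from the data and the 3 experiments. Alternatives were other pseudocounts, filters, normalizations, probe set summaries, fits and left-out arrays.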

Additional observations from a re-analysis of the deposited data

Results flagged for a closer look

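The effect of the hormone differed between times for 9 of the 20 genes examined singly, by limma's test of the difference between 2 times without a replicate block. With the replicate number as a block these 9 still passed from 8 to 24 h. TSKU and RGCC then passed as well (adjusted p = 0.014 and 0.045). The 20 genes were chosen on the same 24 h arrays, so these differences are not independent of that choice. Among all genes tested, 0.362% were higher and 0.279% lower at 24 h than at 8 h. From 8 to 24 h the log2 difference was 2.61 for WNT11, 2.27 for SERPINB7, 1.41 for CAMP and 1.10 for KLK6, all higher at 24 h. It was -3.00 for CCL20, -1.17 for CXCL2, -1.09 for MAL, -0.98 for FAM107A and -0.95 for KRT23, all lower at 24 h. The calls of FAM107A and KRT23 ended without some arrays (highest adjusted p = 0.13 and 0.10). From 24 to 72 h the difference was 1.41 for WNT11, higher at 72 h (adjusted p = 0.022, and 0.16 at most without 1 array).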

How the results depend on the processing

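None of the 122 genes recomputed under the alternatives reversed at 24 h against vehicle; named members that did not pass, members with calls lost without 1 array and genes outside the lists were in part not among them. The 176 higher genes stayed within 1.5 times under the alternatives run (120 to 167 without 1 array). The 116 lower genes became 72 with median centring and 65 to 111 without 1 array, with 65, 75 and 69 without vehicle replicate 1, 2 and 3 and 77 without 24 h replicate 1. With the replicate number as a block, 232 were higher and 188 lower. Same-number 24 h and vehicle arrays correlated at 0.0717, 0.0578 and 0.101. Each 24 h array correlated best with the vehicle array of its own number, a hint of pairing from the data. The main fit took the numbers as pairs in no comparison, since no label says what a number shares. The block ended 1 of the 292 calls.

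Against 8 h, the 26 higher and 20 lower genes became 16 and 6 with no filter, 17 and 11 with median centring, 15 and 12 with no intensity trend, 54 and 36 with the replicate block, and 7 to 17 and 4 to 12 without 1 array (7 and 4 without 8 h replicate 3). From 24 to 72 h, the 6 higher and 5 lower genes became 3 and 1 with no filter, 3 and 2 with median centring, 3 and 1 with no intensity trend, 14 and 11 with the replicate block, and 2 to 5 and 1 to 8 without 1 array. The lower count was 1 with quantile normalization, with averaged probe sets and with only the 6 arrays compared. Differences near 0 from 24 to 72 h changed sign for CCL20 (-0.08 to 0.63), CXCL6 (-0.08 to 0.11), CYP24A1 (-0.19 to 0.18), IL6 (-0.11 to 0.34) and TSKU (-0.23 to 0.01) without 1 array, and DUSP10 became 0 with averaged probe sets. The cause was not tested. CCL20 and PPP1R1A fell under the filter with a pseudocount of 1. FAM107A had -3.53 with the larger pseudocount, where its other probe set was used. Signal near background limits the sizes for CAMP, WNT11, SERPINB7, PALMD, GATA6 and TRPV6.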

Other observations

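Outside the gene lists, and chosen after their values were seen, some called genes with large changes held without each array. CHRDL1, a secreted antagonist of BMP ligands, stood at 1412 ± 109 at 24 h and 464 ± 27.9 in vehicle (log2 change 1.57, adjusted p = 8.2e-08; SD, n = 3 each). LBH, a transcriptional cofactor of limb and heart development, stood at 4340.4 ± 219.6 at 24 h and 1519 ± 255 in vehicle (1.52, adjusted p = 1.7e-06). ABLIM1, an actin-binding LIM protein, stood at 13175 ± 788 at 24 h and 5067 ± 141 in vehicle (1.37, adjusted p = 6.7e-08). RARRES1, a retinoid-responsive membrane protein, rose by 1.52 (adjusted p = 2.6e-05), NCAM1, a neural cell adhesion molecule, by 1.42 (adjusted p = 6.7e-04) and NOX4, an oxidase that makes hydrogen peroxide, by 1.40 (adjusted p = 0.0050).

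Among lower genes outside the lists, SDC4, the heparan sulphate proteoglycan syndecan 4, stood at 1136 ± 14.3 at 24 h and 2089 ± 209.9 in vehicle (log2 change -0.87, adjusted p = 3.1e-05). ANXA1, the calcium-binding annexin A1, stood at 3362 ± 703 at 24 h and 5477 ± 630.4 in vehicle (-0.72, adjusted p = 0.0043). E2F8, a repressor of cell cycle genes, stood at 297 ± 20.7 at 24 h and 542 ± 41.8 in vehicle (-0.83, adjusted p = 0.0011). RCAN2, a regulator of calcineurin, fell by 1.02 (adjusted p = 9.7e-04) and CTSB, the lysosomal protease cathepsin B, by 0.44 (adjusted p = 0.0020). SORL1, a sorting receptor, was lower on U133A (-0.69, adjusted p = 0.0040) but had a positive U95 log2 ratio of 0.70.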
